A study of Mus musculus with 18 samples.

Results

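Simple epithelial keratins and markers of bile duct and progenitor cells were followed in bulk liver RNA sequencing of 18 mice. The genes were Krt7, Krt8, Krt18, Krt19, Epcam, Sox9, Spp1 and Cd24a, chosen by name with earlier results of these data known. Each was found under its symbol, which gave 8 of the 15052 genes in the table. The mice were C57BL/6J wild-type (WT) animals or whole-body Apoe knockout (KO) animals, 10 to 12 weeks old. After 5 days of acclimation they received for 10 days either a liquid diet with 5% ethanol (EtOH-fed) or an isocaloric control diet (pair-fed). On day 11 the EtOH-fed mice were gavaged with 5 g/kg ethanol and the pair-fed mice with 9 g/kg dextrin-maltose, and livers were taken 9 h later. There were 4 pair-fed and 5 EtOH-fed WT mice, and 5 pair-fed and 4 EtOH-fed KO mice, the last numbered 1, 2, 4 and 5. In the Apoe KO mice the gene is lost in every cell of the body, so the groups do not separate Apoe of hepatocytes from that of macrophages.

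Keratins are the proteins of the intermediate filaments of epithelial cells, and each filament needs a type II keratin paired with a type I keratin. Hepatocytes contain almost solely Krt8 (type II) and Krt18 (type I), and these are also the keratins that accumulate in Mallory-Denk bodies, the cytoplasmic inclusions of alcohol-related liver disease. Bile duct epithelium adds Krt7 (type II) and Krt19 (type I). Epcam is an adhesion molecule of bile duct and progenitor cells, Cd24a a glycosylphosphatidylinositol-anchored surface protein of progenitor and several blood cells, Sox9 the transcription factor of bile duct identity, and Spp1 encodes osteopontin, a secreted integrin and Cd44 ligand made by bile duct cells and macrophages. In injured liver, the ductular reaction is a proliferation of such duct-like cells.

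Each value is a rounded read count after scaling of all livers to about the same total, and is called a scaled read count here. In the 11 mice in which the size of 1 read could be read from the spacing of the low values, the reads on genes were estimated at 5.61 M to 29.1 M. Depth was not balanced over the groups. Of the EtOH-fed Apoe KO mice, 3 of 4 were estimated at 7.87 M to 13.5 M reads, whereas of the EtOH-fed WT mice 1 of 5 could be estimated, at 24.6 M, and the spacing in the others was that of about 1 unit per read or less. A fit with limma voom weights used the estimated reads where there were any, and took 1 unit as 1 read in the other mice. Among the EtOH-fed mice, the latter were WT mice 1, 2, 3 and 5 and Apoe KO mouse 1. In this fit, the log2 fold changes of Krt8, Krt18 and Krt19 between the EtOH-fed genotypes were 1.02, 0.54 and 1.89. All of them were called, as without weights, but depth was taken into account only in part. The targeted gene fitted the genotype labels, with Apoe scaled read counts of 8586 to 108651 in the 9 KO mice and 611230 to 798431 in the 9 WT mice. The labels list every mouse as female, but the library labelled EtOH-fed Apoe KO mouse 1 held 826 scaled reads of Xist, the RNA of the inactive X chromosome, against 15227 to 30379 in the other 17 mice, and 1077 of the Y-linked Ddx3y against 2 to 118. Calls of the 8 genes that involve its group are therefore also given without this mouse, and for the gene lists the counts without it. In bulk liver, fewer cells of a type and less RNA per cell cannot be told apart.

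Krt8 and Krt18 lie near each other on chromosome 15 of the mouse genome (GRCm38, GENCODE M21), a gap of 23.7 kb apart and on opposite strands. Krt8 (ENSMUSG00000049382) occupies chr15:101996698-102004482 on the minus strand and Krt18 (ENSMUSG00000023043) chr15:102028180-102032027 on the plus strand, and Krt7 (ENSMUSG00000023039) lies on the same chromosome at chr15:101411043-101430313. Krt19 (ENSMUSG00000020911; chr11:100140810-100148665) and Sox9 (ENSMUSG00000000567; chr11:112782224-112787760) are on chromosome 11. Epcam (ENSMUSG00000045394) is at chr17:87635979-87651129, Spp1 (ENSMUSG00000029304) at chr5:104435118-104441050 and Cd24a (ENSMUSG00000047139) at chr10:43578284-43584265. Krt7 and Krt8 each overlap a noncoding gene on the other strand (Gm671 and Gm36026), and Spp1 overlaps Gm42793 on its own strand. Whether counting used strand is not given in the sources used here, so reads of these overlapping genes cannot be told apart. A pseudogene of Krt8 (Krt8-ps) is also annotated, and how reads that match both were counted is not given in the sources used here.

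RefSeq promoter sequences (GRCm38.p6, 250 bases before to 50 after the listed start) were found for 5 of the 8 genes. Those of the neighbours Krt8 and Krt18, which were higher in the same livers, and of Spp1, which like Krt19 was lower after EtOH in WT mice, are shown, with matches to the motifs searched in capitals.
Krt8 promoter, chr15:102004293-102004592, minus strand: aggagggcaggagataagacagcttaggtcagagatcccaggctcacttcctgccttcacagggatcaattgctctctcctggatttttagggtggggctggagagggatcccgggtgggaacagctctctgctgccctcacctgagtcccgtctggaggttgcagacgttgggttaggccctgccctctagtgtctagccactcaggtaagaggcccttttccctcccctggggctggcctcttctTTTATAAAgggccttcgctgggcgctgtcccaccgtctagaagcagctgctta
Krt18 promoter, chr15:102027966-102028265, plus strand: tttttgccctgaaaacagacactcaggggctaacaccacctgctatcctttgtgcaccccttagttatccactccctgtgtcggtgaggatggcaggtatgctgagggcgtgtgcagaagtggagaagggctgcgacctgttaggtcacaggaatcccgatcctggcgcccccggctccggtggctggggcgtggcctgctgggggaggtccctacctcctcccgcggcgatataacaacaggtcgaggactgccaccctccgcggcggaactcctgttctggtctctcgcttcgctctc
Spp1 promoter, chr5:104434861-104435160, plus strand: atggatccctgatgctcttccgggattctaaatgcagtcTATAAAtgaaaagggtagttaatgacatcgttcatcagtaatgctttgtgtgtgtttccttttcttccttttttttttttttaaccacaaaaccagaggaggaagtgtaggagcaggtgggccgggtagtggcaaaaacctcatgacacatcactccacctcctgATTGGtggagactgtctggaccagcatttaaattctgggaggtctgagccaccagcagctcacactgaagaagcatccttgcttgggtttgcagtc
The motifs, searched on both strands, were the TATA box TATAAA, present in 13.6% of 32851 promoters of this length, the CCAAT box CCAAT (37.4%), the GC box GGGCGG (35.7%) and the AP-1 site TGANTCA (7.81%). The Krt8 sequence held TATAAA on each strand in overlapping matches that span the listed start, Krt18 held none of these motifs, and Spp1 held a TATAAA match at position -211 and a CCAAT match on the minus strand at -46. A match describes these letters and is not a measured binding site.

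Levels between genes can only be compared per length. Per kb of annotated exon, the EtOH-fed Apoe KO mice had mean scaled read counts of 7240 for Krt18, 6493 for Krt8, 2195 for Spp1, 330 for Krt19, 184 for Cd24a, 104 for Sox9, 56.5 for Epcam and 8.9 for Krt7. In pair-fed WT mice the order of the 8 genes was the same, with 3554 for Krt18, 2481 for Krt8, 2273 for Spp1, 251 for Krt19, 137 for Cd24a, 66 for Sox9, 65.6 for Epcam and 9.36 for Krt7. The ranges over mice overlapped there for Krt8 with Spp1 and for Sox9 with Epcam. In the EtOH-fed KO livers they overlapped for Krt18 with Krt8 and for each neighbouring pair from Krt19 down to Epcam. These ranges leave aside that the genes were measured in the same livers. Within the EtOH-fed KO livers, Krt8 was below Krt18 in each, by a log2 ratio per kb of -0.26, -0.16, -0.02 and -0.22. The exon length of Krt7 (7.05 kb) includes long alternative exons, which lowers its value per kb. Krt7 was also the gene with the thinnest counts, with an estimated 8 to 42 reads in the 11 mice with a known read size.

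**Figure D1:**
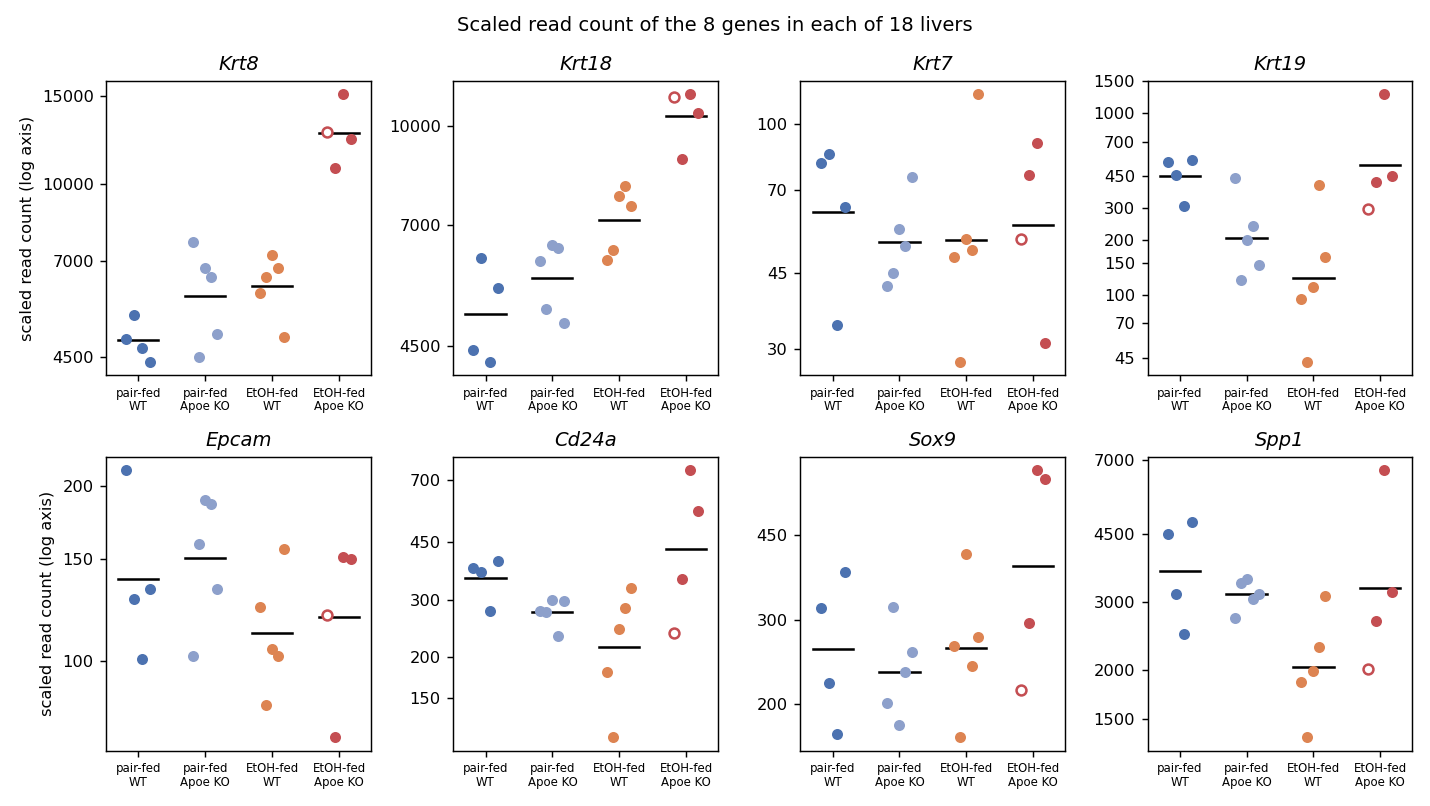
Scaled read count (log axis, 1 panel per gene) in each of the 18 livers; each dot is 1 mouse, the bar is the group mean on the log2 scale, and the open circle is the EtOH-fed Apoe KO library that did not match its labelled sex. Krt8 and Krt18 in the 4 EtOH-fed Apoe KO livers lie above every other liver, Krt19 is on average lowest in EtOH-fed WT livers, and the groups overlap for Krt7 and Epcam.

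The first comparison asks how EtOH-fed Apoe KO livers differed from EtOH-fed WT livers. Krt8 and Krt18, the hepatocyte pair, and Krt19, the type I keratin of bile ducts, were higher, and the other 5 genes did not pass the test. Of all 15052 genes, 4.69% were called in this comparison (limma, Benjamini-Hochberg adjusted p under 0.05), and 4.25% were called higher, against 3 of the 8 genes here. Since the 8 genes were chosen with earlier results of these data known, these shares only describe them. The median log2 fold change was 0.62 over the 8 genes and 0.11 over all genes. Calls in this comparison leaned upwards, with 639 higher and 67 lower (90.5% higher). With median-of-ratios scaling, which lowered the median of all genes by 0.13 on the log2 scale, the split was 380 and 126 (75.1% higher).

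Krt8 gave scaled read counts of 12682, 10782, 15115 and 12327 in EtOH-fed Apoe KO mice 1, 2, 4 and 5, and of 6034, 6504, 7207, 6770 and 4930 in EtOH-fed WT mice 1 to 5. The lowest KO liver was thus above the highest WT liver. The means were 12726 ± 1793 (SD, n = 4) and 6289 ± 871 (SD, n = 5), a 2.03-fold difference with a log2 fold change of 1.02 (SE 0.13, 95% confidence interval 0.74 to 1.3, limma adjusted p = 0.0012). Krt8 was called in each of the 9 fits that left out 1 mouse, with log2 fold changes of 0.93 to 1.09, and the value without EtOH-fed Apoe KO mouse 1 was 1.02.

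Krt18 gave 11114, 8865, 11221 and 10501 in the EtOH-fed KO livers and 6157, 6381, 7769, 8044 and 7497 in the EtOH-fed WT mice. Here too every KO liver was above every WT liver. The mean was 10425 ± 1087 (SD, n = 4) against 7170 ± 848 (SD, n = 5), a 1.46-fold difference (log2 fold change 0.54, SE 0.12, limma adjusted p = 0.0178). The size of the difference held in every fit that left out 1 mouse, at 0.49 to 0.62, and was smaller with median-of-ratios scaling (0.41), where the call was lost (adjusted p = 0.0506). Krt18 was called without EtOH-fed Apoe KO mouse 1 (0.51, adjusted p = 0.0452). The call was lost without EtOH-fed Apoe KO mouse 4 (0.5, adjusted p = 0.0653), EtOH-fed Apoe KO mouse 5 (0.54, 0.0517) or EtOH-fed WT mouse 1 (0.49, 0.0562). Of the 8 genes, Krt8 and Krt18 were those whose groups did not overlap, whereas 8.13% of all genes had groups that did not overlap and 7.12% had every KO liver above every WT liver.

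Krt19 gave 299, 418, 1273 and 450 in the EtOH-fed KO livers and 95, 43, 111, 404 and 162 in the EtOH-fed WT mice. The groups overlapped, since WT mouse 4 was above KO mouse 1, and KO mouse 4 was far above the other KO livers. The difference was 4.13-fold (log2 fold change 2.05, SE 0.53, 95% confidence interval 0.91 to 3.18, limma adjusted p = 0.0445). This call was close to the threshold. It held in 2 of the 9 fits without 1 mouse, those without EtOH-fed Apoe KO mouse 1 (2.31, adjusted p = 0.0448) and without EtOH-fed WT mouse 4. In the other 7, the log2 fold change was 2.15 without EtOH-fed Apoe KO mouse 2 (adjusted p = 0.069), 1.61 without mouse 4 (0.14) and 2.11 without mouse 5 (0.0893), and 1.95, 1.67, 2.0 and 2.14 without EtOH-fed WT mouse 1, 2, 3 or 5 (0.108, 0.0693, 0.0749 and 0.058).

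Among the remaining bile duct and progenitor genes, Cd24a gave 237, 348, 749 and 561 in the EtOH-fed KO livers and 181, 114, 245, 284 and 326 in the EtOH-fed WT mice. Its log2 fold change of 1.0 was as large as that of Krt8 but did not pass the test (SE 0.34, adjusted p = 0.123). Spp1 had 2018, 2688, 6591 and 3188 against 1868, 1343, 1989, 2304 and 3107 (0.68, SE 0.29, adjusted p = 0.224). Sox9 had 214, 296, 614 and 588 against 264, 171, 410, 241 and 276 (0.57, SE 0.31, adjusted p = 0.359). In all of these the groups overlapped, and the highest value was that of EtOH-fed Apoe KO mouse 4. Krt7 ranged from 31 to 90 in EtOH-fed Apoe KO and from 28 to 117 in EtOH-fed WT mice (0.12, adjusted p = 0.918). Epcam ranged from 74 to 151 and from 84 to 156 (0.09, adjusted p = 0.898). Without EtOH-fed Apoe KO mouse 1 the log2 fold changes were 1.28 for Cd24a (adjusted p = 0.0504), 0.91 for Spp1 (0.105), 0.86 for Sox9 (0.128), 0.15 for Krt7 (0.896) and 0.09 for Epcam (0.908), and none of these was called. The confidence interval of Krt7 reached from -0.76 to 0.99 and that of Epcam from -0.47 to 0.65, and differences inside these intervals could not be seen with these mice.

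**Figure D2:**
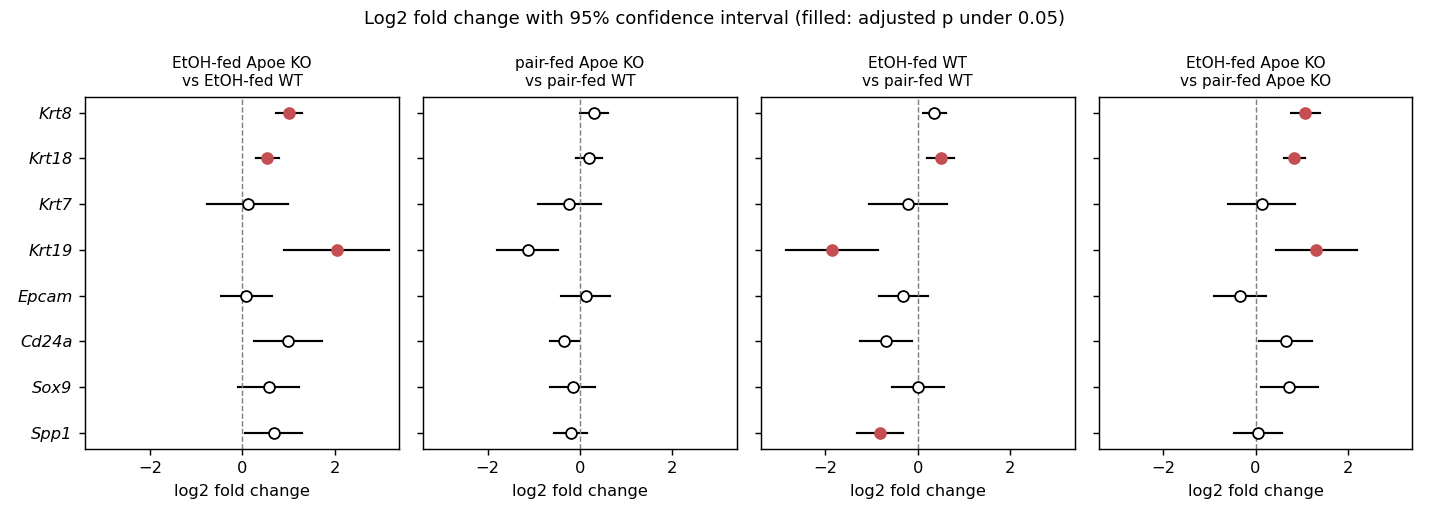
Log2 fold change (x axis) of each of the 8 genes in the 4 comparisons, with its 95% confidence interval; filled red dots passed an adjusted p of 0.05. The interval of Krt19 is wide in every panel, whereas those of Krt8 and Krt18 are narrow, and Krt7 and Epcam lie near 0 throughout.

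On the control diet, none of the 8 genes was called between Apoe KO and WT livers, and 1.73% of all genes were called. For Krt19, pair-fed WT mice gave 542, 460, 308 and 551 and pair-fed Apoe KO mice 440, 121, 201, 239 and 146. The WT mice were thus mostly above the KO mice, with KO mouse 1 within their range, and the log2 fold change of -1.13 (SE 0.31, limma adjusted p = 0.0723) was just outside the threshold. It was -1.4 (adjusted p = 0.0178) without pair-fed Apoe KO mouse 1 and -1.32 (adjusted p = 0.0422) without pair-fed WT mouse 3, and was called with voom weights (-1.25, adjusted p = 0.0361). Krt8 (4892, 5462, 4690 and 4406 in WT, and 7647, 4489, 6788, 6506 and 5011 in KO) had a log2 fold change of 0.3 (adjusted p = 0.257). The values for Krt18 (0.19), Krt7 (-0.23), Epcam (0.12), Sox9 (-0.16), Spp1 (-0.2) and Cd24a (-0.35) had adjusted p-values of 0.206 to 0.824. The 2 groups overlapped for each of the 8 genes, and did not for 7.03% of all genes. Krt7 lay between 34 and 85 in pair-fed WT and between 42 and 75 in pair-fed KO mice, Epcam between 101 and 213 and between 102 and 189, and Sox9 between 174 and 377 and between 181 and 319.

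The effect of the diet was then compared in each genotype. In WT mice, Krt19 and Spp1 were lower and Krt18 was higher after EtOH, and of all genes 12.7% were called, 6.19% higher and 6.52% lower. Krt19 fell from the 4 pair-fed values given above to 95, 43, 111, 404 and 162, with EtOH-fed WT mouse 4 inside the pair-fed range. The means were 465 ± 113 (SD, n = 4) and 163 ± 141 (SD, n = 5), and the log2 fold change was -1.86 (SE 0.46, limma adjusted p = 0.0201), that is 3.62-fold lower. Spp1 was 4518, 3153, 2489 and 4845 in pair-fed WT mice and 1868, 1343, 1989, 2304 and 3107 in EtOH-fed WT mice, which overlapped through EtOH-fed WT mouse 5 (log2 fold change -0.82, SE 0.23, adjusted p = 0.0326, 1.77-fold lower). Krt18 was 4443, 6208, 4259 and 5562 in pair-fed WT mice, and EtOH-fed WT mice were 1.41-fold higher (log2 fold change 0.5, SE 0.13, adjusted p = 0.0265). Krt8 was 1.29-fold higher without passing the test (0.36, SE 0.12, adjusted p = 0.0624). Cd24a (375, 365, 277 and 395 in pair-fed WT mice) had a log2 fold change of -0.69 (adjusted p = 0.1). For Krt7 (-0.21), Epcam (-0.31) and Sox9 (0.01), adjusted p-values were 0.454 to 0.989. For each of the 8 genes the 2 groups overlapped, and for 14.4% of all genes they did not.

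These calls in WT mice depended on single livers. Krt19 was not called without pair-fed WT mouse 1 (-1.77, adjusted p = 0.0522), mouse 2 (-1.85, 0.0529) or mouse 4 (-1.76, 0.0622). Spp1 lost its call without pair-fed WT mouse 1 (-0.72, adjusted p = 0.0899), 2 (-0.89, 0.0555) or 4 (-0.68, 0.106), and without EtOH-fed WT mouse 1 (-0.79, 0.0664), 2 (-0.67, 0.064) or 3 (-0.81, 0.0581). Krt18 lost it without pair-fed WT mouse 1 (0.43, adjusted p = 0.0744) or 3 (0.41, 0.0736), and without EtOH-fed WT mouse 3 (0.46, 0.0553) or 4 (0.45, 0.0574). Without EtOH-fed WT mouse 5, Krt8 (0.45, adjusted p = 0.0143) and Cd24a (-0.84, 0.0443) were called as well.

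In Apoe KO mice, EtOH-fed livers had more Krt8, Krt18 and Krt19 than pair-fed livers, while 23.2% of all genes were called, 16.3% higher and 6.92% lower. The split over all genes was 2446 higher and 1042 lower (70.1% higher), and 1656 and 1607 (50.8% higher) with median-of-ratios scaling. Krt8 rose from 7647, 4489, 6788, 6506 and 5011 in the pair-fed KO mice to between 10782 and 15115, a 2.12-fold difference without overlap (log2 fold change 1.08, SE 0.15, limma adjusted p = 0.000299). Krt18 rose from 6131, 5157, 6491, 6422 and 4896 to between 8865 and 11221, 1.8-fold and again without overlap (0.84, SE 0.11, adjusted p = 0.000198), whereas 20.0% of all genes had groups that did not overlap and 14.0% had every EtOH-fed liver above every pair-fed liver. Both were called in each of the 9 fits that left out 1 mouse. Without EtOH-fed Apoe KO mouse 1 the values were 1.08 for Krt8 and 0.81 for Krt18.

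Krt19 was 2.5-fold higher in EtOH-fed than in pair-fed Apoe KO mice (log2 fold change 1.32, SE 0.4, limma adjusted p = 0.0303), with means of 610 ± 447 (SD, n = 4) and 229 ± 126 (SD, n = 5). The groups overlapped through pair-fed KO mouse 1, and the call was lost without pair-fed Apoe KO mouse 2 (1.13, adjusted p = 0.0614), 3 (1.31, 0.0553) or 5 (1.2, 0.0657), and without EtOH-fed Apoe KO mouse 4 (0.89, 0.0866) or 5 (1.39, 0.0585), and held without EtOH-fed Apoe KO mouse 1 (1.58, 0.0184). Sox9 (201, 319, 181, 234 and 257 in pair-fed KO mice) had a log2 fold change of 0.73 (adjusted p = 0.0839) and Cd24a (277, 275, 299, 232 and 298) of 0.65 (adjusted p = 0.0935). Without EtOH-fed Apoe KO mouse 1, the library at odds with its labelled sex, 5 of the 8 genes were called, since Sox9 (1.02, adjusted p = 0.0142) and Cd24a (0.94, adjusted p = 0.00947) joined the 3 keratins. Spp1 (2734, 3373, 3450, 3067 and 3159 in pair-fed KO mice) differed by 0.05 (adjusted p = 0.9), Krt7 by 0.13 (0.817) and Epcam by -0.33 (0.391).

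The difference between the 2 diet effects was tested as an interaction over all 18 mice. Krt19 was the 1 gene of the 8 that passed, and 2.84% of all genes did, 2.60% with a positive and 0.239% with a negative value. Over all genes 392 were positive and 36 negative (91.6% positive), and 294 and 84 (77.8%) with median-of-ratios scaling. The diet effect on Krt19 was -1.86 in WT and 1.32 in KO mice, so the interaction was 3.18 on the log2 scale (SE 0.69, 95% confidence interval 1.75 to 4.61, limma adjusted p = 0.0156). It was called in all 18 fits that left out 1 mouse, with values of 2.75 to 3.6 and adjusted p-values of 0.00416 to 0.0456. Without EtOH-fed Apoe KO mouse 1 it was 3.44 (adjusted p = 0.0109). Cd24a had the next largest value at 1.34 (SE 0.4, adjusted p = 0.081), and was called at 1.63 (adjusted p = 0.0195) without EtOH-fed Apoe KO mouse 1 and at 1.49 (adjusted p = 0.0459) without EtOH-fed WT mouse 5. Krt8 had an interaction of 0.72 (SE 0.2, adjusted p = 0.0605), which was called without pair-fed Apoe KO mouse 1 (0.81, adjusted p = 0.0365), EtOH-fed Apoe KO mouse 2 (0.79, 0.0418) or EtOH-fed WT mouse 3 (0.77, 0.0488). For Krt18 (0.35), Sox9 (0.73), Spp1 (0.88), Krt7 (0.34) and Epcam (-0.02), adjusted p-values were 0.233 to 0.985.

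The volcano plots of the study use an unadjusted p under 0.05 with a log2 fold change beyond 1. By that call, Krt8 and Krt19 passed between the EtOH-fed genotypes (2 of 8 genes, 5.02% of all genes) and for the diet in KO mice (2 of 8, 8.40%). Krt19 alone passed between the pair-fed genotypes (1 of 8, 2.78%) and for the diet in WT mice (1 of 8, 5.49%). Krt19 and Cd24a passed for the interaction (2 of 8, 7.45%). Krt19 was thus the gene that passed this call in each comparison.

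**Figure D3:**
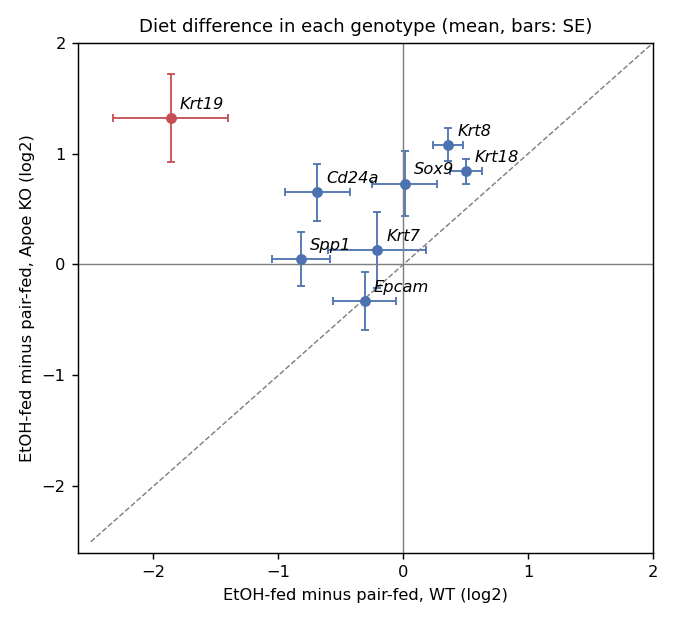
Difference between EtOH-fed and pair-fed livers (log2 fold change ± SE) in WT mice (x axis) and in Apoe KO mice (y axis) for the 8 genes; on the dashed line the 2 differences are equal. Krt19 (red) lies at -1.86 and 1.32, farthest from the line, while Krt8 and Krt18 lie on the positive side of both axes and Epcam lies on the line.

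Since filaments are built from a type II and a type I keratin, the balance of Krt8 to Krt18 was also compared, as log2 of the ratio of their scaled read counts in each liver. It was 0.19, 0.28, 0.43 and 0.23 in the EtOH-fed Apoe KO mice, so that all 4 were above 0, and between -0.6 and 0.03 in the EtOH-fed WT mice. The group means were 0.28 ± 0.1 (SD, n = 4) and -0.19 ± 0.25 (SD, n = 5), and the groups did not overlap. The ratio is one of scaled read counts and not of levels per length. Per kb of exon Krt8 was below Krt18 in every liver, by a log2 ratio of -0.26, -0.16, -0.02 and -0.22 in the EtOH-fed KO livers, and the length is a constant that leaves the differences between groups as they are. The difference of 0.48 had a 2-sided exact permutation p of 0.0159, which is the smallest this test can give with these numbers of mice, and an adjusted p of 0.0635 over the 4 comparisons. It was 0.24 between EtOH-fed and pair-fed Apoe KO mice (exact permutation p = 0.0635, adjusted 0.127). It was 0.11 between pair-fed Apoe KO and WT mice (exact permutation p = 0.46) and -0.13 between EtOH-fed and pair-fed WT mice (exact permutation p = 0.444). None of the 4 passed after adjustment, but 1 comparison alone could not pass even at the smallest p. The lack of a call therefore decides nothing. Without EtOH-fed Apoe KO mouse 1 the first difference was 0.51.

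**Figure D4:**
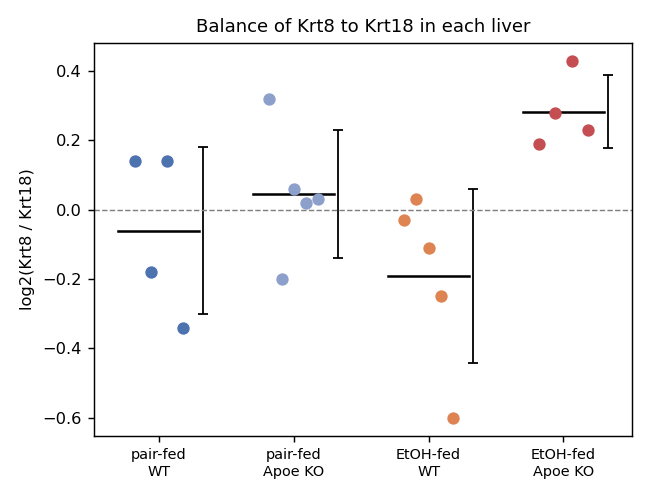
Log2 ratio of Krt8 to Krt18 scaled read counts in each liver by group; dots are mice, the horizontal bar is the group mean and the vertical bar beside it 1 SD, and the dashed line marks equal scaled read counts. The 4 EtOH-fed Apoe KO livers lie at 0.19 to 0.43, above all EtOH-fed WT livers.

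Genes that work with the keratins were described from a list of keratin partners and Mallory-Denk body components, of which 24 of 26 were in the table. Between EtOH-fed Apoe KO and WT livers 6 of the 24 were higher and 0 lower, beside 4.25% and 0.445% of all genes. The median log2 fold change was 0.29, beside 0.11 over all genes. Sqstm1, which encodes the p62 protein found in Mallory-Denk bodies, was higher by 0.73 (limma adjusted p = 0.00471), and Tgm2, the crosslinking enzyme transglutaminase 2, by 0.9 (adjusted p = 0.00684). Vim, the intermediate filament protein of mesenchymal cells, was higher by 1.53 (adjusted p = 0.0209) and Lmna, the nuclear lamin A/C, by 0.45 (adjusted p = 0.0264). The diet alone was followed by a larger difference in Sqstm1, at 1.77 in WT (adjusted p = 1.71e-06) and 1.95 in KO mice (adjusted p = 4.45e-06). In WT mice 6 were higher and 2 lower after EtOH, beside 6.19% and 6.52% of all genes. Among the higher were the keratin Krt23 (2.63, adjusted p = 0.00109), the small heat shock protein gene Hspb1 (0.97, adjusted p = 0.00492) and the periplakin gene Ppl (1.07, adjusted p = 0.000716). In KO mice 12 were higher and 1 lower, beside 16.3% and 6.92% of all genes. Plec, the plectin gene, was among the higher (0.6, adjusted p = 0.000213). On the control diet 3 were higher and 1 lower in KO than in WT mice, beside 0.870% and 0.864% of all genes. Hspb1 (0.83) and the desmosomal Dsp (0.57) were among the higher and Vim (-0.94) was the lower. The interaction was called in 6 of the 24, beside 2.84% of all genes, with Krt20 at 4.43 (limma adjusted p = 0.0193) and Krt23 at -2.33 (limma adjusted p = 0.0307). Keratins outside the 8 genes thus went in opposite directions. Krt20 was low in EtOH-fed WT mice, at 4 to 113 scaled reads. Without EtOH-fed Apoe KO mouse 1, 5 of the 24 were higher between the EtOH-fed genotypes, 10 were higher and 1 lower for the diet in KO mice, and Krt23 lost its interaction call (-1.98, adjusted p = 0.0529).

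Of a list of 32 other genes used as bile duct markers, 27 were in the table. Which liver cells their RNA came from was not tested. Between EtOH-fed Apoe KO and WT livers, the annexin gene Anxa3 (0.98, limma adjusted p = 0.0375) and the protease inhibitor gene Spint2 (0.5, adjusted p = 0.0472) were higher and 25 were not called, which is 2 of 27 beside 4.69% of all genes. Of the 27 values 21 were positive, with a median of 0.38 beside 0.11 over all genes. The call of Spint2 was lost without EtOH-fed Apoe KO mouse 1 (0.45, adjusted p = 0.108). On the control diet Spint2 was higher (0.5) and Aqp1, the water channel, lower (-0.63) in KO mice. After EtOH, 5 were higher and 1 lower in WT mice (12.7% of all genes called), with Aqp1 at 0.94 and the mucin-like Dmbt1 at -3.41 (adjusted p = 0.00384), and 6 were higher and 0 lower in KO mice, with Aqp1 at 1.61 and Pdgfa at 1.25, beside 23.2% of all genes called. This number was 4 without EtOH-fed Apoe KO mouse 1. The interaction was called for Dmbt1 (4.0, limma adjusted p = 0.0289) and Anxa3 (1.48, limma adjusted p = 0.035), both of the same sign as Krt19. Dmbt1 was low in EtOH-fed WT mice, at 5 to 80 scaled reads. The summed scaled read count of the list was 16038 to 19190 in the pair-fed and 20827 to 24419 in the EtOH-fed WT mice, and 18573 to 21222 in the pair-fed and 25156 to 30699 in the EtOH-fed KO mice. The sum was higher in EtOH-fed than in pair-fed WT mice, where Aqp1, Sorbs2 and Tm4sf4, abundant genes of the list, were higher, while over the list 12 of 27 values were positive with a median of -0.08.

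Notch and YAP signalling drive the bile duct program and Sox9 expression. Of 28 genes of these pathways 25 were in the table. Between the EtOH-fed genotypes, KO against WT, 2 were higher and 0 lower, namely Axl, a receptor tyrosine kinase and YAP target (1.35, limma adjusted p = 0.00054), and Ankrd1, a classical YAP target (2.06, adjusted p = 0.0314). The shares of all genes were 4.25% higher and 0.445% lower. On the control diet 0 were called, beside 1.73% of all genes. In WT mice Axl (-0.78, adjusted p = 0.00183) and the angiomotin-like Amotl2 (-0.59, adjusted p = 0.00509) were lower after EtOH, beside 6.52% of all genes called lower. In KO mice 8 were higher after EtOH, including Axl (1.01), Ankrd1 (2.52) and Ccn2 (1.37), beside 16.3% of all genes. Amotl2 was lower there as well (-1.05, limma adjusted p = 0.000261), beside 6.92% of all genes. The called genes of this list thus went in both directions in KO mice. The interaction was called for Axl (1.79, adjusted p = 0.000148), Ankrd1 (3.58, adjusted p = 0.00714) and the YAP partner gene Tead2 (1.95, adjusted p = 0.0358), beside 2.84% of all genes. Counts without EtOH-fed Apoe KO mouse 1 were 3 higher between the EtOH-fed genotypes, and 9 higher and 1 lower for the diet in KO mice. None of these lists was tested as a set.

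Receptors and partners of osteopontin, Epcam and Cd24a were described from a list of 21 genes, 20 of them in the table. Between the EtOH-fed genotypes, KO against WT, 4 were higher and 0 lower, beside 4.25% and 0.445% of all genes. The 4 were the osteopontin receptor gene Cd44 (1.12, limma adjusted p = 0.00598), Mmp3, a protease that cleaves osteopontin (2.83, adjusted p = 0.0113), the thrombospondin gene Thbs1 (1.82, adjusted p = 0.0143) and Tgm2. Mmp3 was low, at 2 to 14 scaled reads in EtOH-fed WT and 32 to 96 in EtOH-fed Apoe KO mice. Spp1 itself was not called there. In WT mice the integrin gene Itga4 (-0.99, adjusted p = 0.0106) and Cd44 (-0.69, adjusted p = 0.0287) were lower after EtOH, and Itga5 was higher (0.61, adjusted p = 0.0135). These were 2 lower and 1 higher of 20, beside 6.52% and 6.19% of all genes. In KO mice 6 were higher and 0 lower after EtOH, beside 16.3% and 6.92% of all genes. The interaction was called for Mmp3 (6.13, with Mmp3 listed at 0 in a pair-fed KO mouse), Cd44 (1.58) and Tgm2 (0.84), beside 2.84% of all genes. If EtOH-fed Apoe KO mouse 1 was left out, 4 were higher between the EtOH-fed genotypes, 4 for the diet in KO mice and 3 for the interaction.

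Markers of other liver cells moved in the same comparisons. Between EtOH-fed Apoe KO and WT livers, 13 of 15 macrophage markers and 4 of 12 stellate cell and fibroblast markers were higher and none lower, against 0 of 9 hepatocyte and 0 of 6 mesothelial markers called. The shares of all genes were 4.25% higher and 0.445% lower. Cd68 was higher by 1.35 (limma adjusted p = 0.000725), Trem2 by 1.91 (adjusted p = 0.00363) and the collagen gene Col1a1 by 2.0 (adjusted p = 0.00216). The summed macrophage markers were 18304 to 31547 in EtOH-fed Apoe KO and 7549 to 13370 in EtOH-fed WT mice, and the stellate markers 21770 to 39794 and 11636 to 18558. Summed mesothelial markers, of cells that also contain Krt8, Krt18 and Krt19, were 559 to 1453 and 240 to 1000, and in the pair-fed groups 233 to 931 in WT and 175 to 632 in KO. For the diet in WT mice 0 of the 6 mesothelial markers were called, with a median of -0.05, and Msln (-0.91, adjusted p = 0.209) and Wt1 (1.0, adjusted p = 0.239) had opposite signs. In KO mice 2 of 6 were higher after EtOH, Msln (1.64, adjusted p = 0.0134) and Wt1 (1.44, adjusted p = 0.033), the latter not called without EtOH-fed Apoe KO mouse 1 (1.51, adjusted p = 0.0528). The interaction was called for Msln alone (2.55, adjusted p = 0.049). Summed hepatocyte markers overlapped, at 2625663 to 3549905 and 2461380 to 4148177. B cell and neutrophil markers (8 of 11 in the table) had 1 called, Ighm (1.41, adjusted p = 0.0115). Erythroid markers (4 of 7) had 0, and 0 of 10 pancreatic acinar markers was in the table. No marker of these cell types was at 0 in any mouse. EtOH-fed Apoe KO mouse 4 had the highest Krt19 and the highest stellate (39794), mesothelial (1453) and B cell and neutrophil (1508) sums. Its sums over the bile duct (30699), Notch and YAP (19758), keratin partner (207403) and receptor (35130) lists were the highest as well. Its macrophage (25368), hepatocyte (3183795) and erythroid (4769) sums were not. Median-of-ratios scaling divided this library by the largest factor of all mice. For the diet in KO mice, where Krt8, Krt18 and Krt19 were higher, 7 of 15 macrophage, 9 of 12 stellate, 2 of 4 erythroid, 2 of 9 hepatocyte and 1 of 8 B cell and neutrophil markers were higher, and 1 hepatocyte marker was lower. The shares of all genes there were 16.3% higher and 6.92% lower. For the diet in WT mice, where Krt19 and Spp1 were lower, 3 macrophage, 2 stellate and 1 B cell and neutrophil marker were lower and 2 hepatocyte markers were higher. The shares of all genes there were 6.52% lower and 6.19% higher. On the control diet 1 macrophage marker, Gpnmb (2.03), was higher and no other marker was called, beside 1.73% of all genes. The interaction was called in 5 macrophage, 5 stellate and 1 B cell and neutrophil marker, all positive, beside 2.60% of all genes with a positive call. The counts without EtOH-fed Apoe KO mouse 1 were 11 macrophage and 6 stellate markers higher between the EtOH-fed genotypes, and 8 macrophage, 9 stellate and 0 erythroid markers for the diet in KO mice. The part of other cell types in the keratin values was not tested.

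How the 8 genes varied together within groups was examined after subtracting each group's mean, over the 28 pairs of genes in the 18 mice. Of the 28 values of Pearson's r, 24 were positive. Spp1 and Cd24a were the pair whose r passed adjustment, with r = 0.88 (permutation p = 5.00e-05, adjusted p = 0.0014). Spearman's rho of this pair was 0.84 (permutation p = 0.00022, adjusted p = 0.00616). Without the 2 mice farthest from the median of Spp1, r was 0.8. Krt19 and Cd24a had r = 0.72 (permutation p = 0.00677, adjusted p = 0.0624) and rho = 0.73 (permutation p = 0.00252, adjusted p = 0.0353). Sox9 had r = 0.74 with Cd24a and 0.73 with Spp1 (adjusted permutation p = 0.0624 for each). Krt8 and Krt18 had r = 0.55 (permutation p = 0.0261, adjusted p = 0.0848) and rho = 0.6 (permutation p = 0.0152, adjusted p = 0.0609). Without the 2 mice farthest from the median of Krt8, their r was 0.65. Pearson's r without EtOH-fed Apoe KO mouse 1 was 0.84 for Spp1 and Cd24a, 0.71 for Krt19 and Cd24a, 0.63 for Sox9 and Cd24a and 0.56 for Krt8 and Krt18. Krt8 with Cd24a (r = 0.04) and with Spp1 (r = -0.04) had values near 0. Livers share depth and cell content across genes, and the mice are those of the comparisons above.

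**Figure D5:**
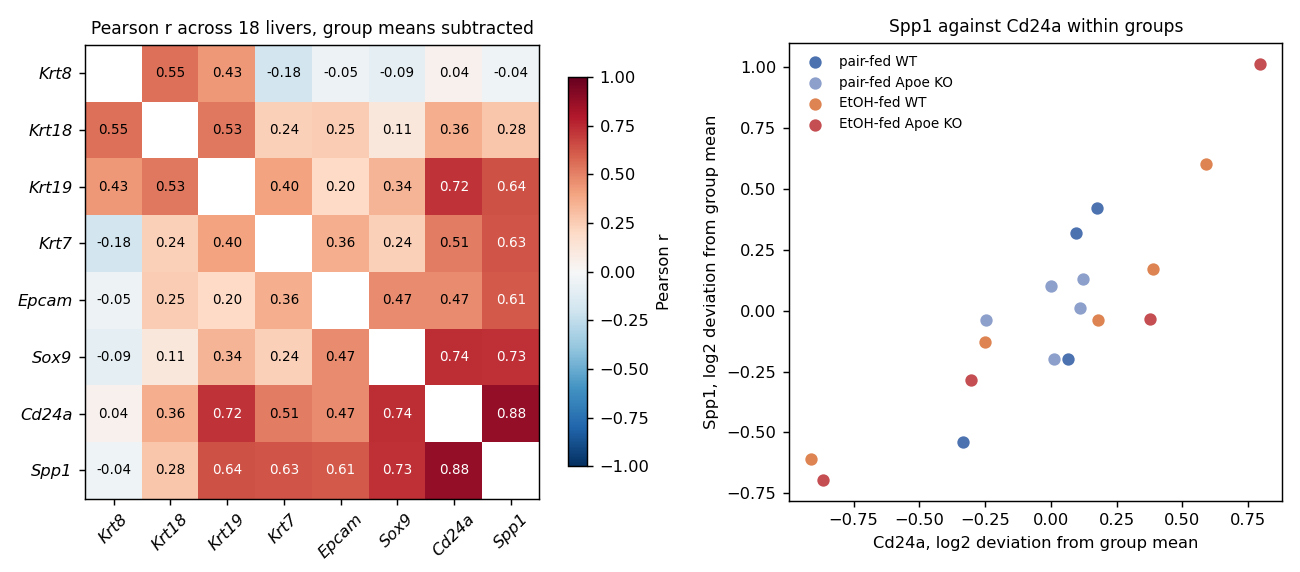
Left, Pearson's r for each pair of the 8 genes over 18 mice after subtracting group means (colour scale from -1 to 1); right, deviations of Spp1 and Cd24a from their group means (log2), 1 dot per mouse, coloured by group. The block of Spp1, Cd24a and Sox9 is the darkest, at 0.73 to 0.88, and the dots of Spp1 and Cd24a rise together over the mice.

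The genes whose within-group pattern was most like each of the 8 were then listed, as the 3 highest Pearson's r among 11066 genes with a mean of at least 100 scaled reads over the 18 mice. They are given as a description, without a test, since the highest of many values are large by selection. For Krt19 they were S100a6, a calcium-binding protein gene (0.97), Tspan8 (0.92) and Emp1 (0.9). For Spp1 they were Anxa13 (0.95), Ezr, which encodes ezrin (0.91), and Sox4 (0.91), and for Cd24a Sox4 (0.9), Zfp329 (0.89) and Mir100hg (0.87). For Sox9 they were Gsn, the gelsolin gene (0.91), Fam76b (0.89) and Gm17491 (0.88). For Krt18 they were Stx4a (0.89), Wdr24 (0.88) and Fnbp1 (0.87), and for Krt8 Ggh (0.85), Snx12 (0.83) and Adss1 (0.82). For Krt7 they were Rpl23a-ps3 (0.87), Heatr1 (0.86) and Arl8b (0.83), and for Epcam Cys1 (0.86), Angptl6 (0.84) and Trim28 (0.82).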

How the data were processed

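Liver RNA of 18 mice had been extracted with TRIzol, sequenced as polyA RNA, trimmed (Trimmomatic), aligned (HISAT2, GRCm38), and counted (featureCounts) by the authors; versions are not given in the sources used here. The authors deposited 1 table in which the value per mouse is a signal, namely the read count per gene scaled to a nearly common total (32267493 to 32292618) and rounded. The scaling is not described. Columns with the authors' DESeq2 fold changes and p-values were not used. The lowest gene mean was 12.1, so genes below it had been left out. After use of each repeated gene once (195 extra lines, identical values), 15052 genes were tested.

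Groups came from the labels. limma 3.58.1 (R 4.3.3, empirical Bayes with trend) was run on log2(value + 1), with only the mice compared (all 18 for the interaction), and Benjamini-Hochberg adjustment over all genes; a gene was called at an adjusted p under 0.05. Fold changes on this scale understate changes of low genes. The test was checked on simulated data. Depth was estimated from the spacing of low values in 11 mice. In the 7 others, the voom fit took 1 unit as 1 read. Whole reads were not recovered in all mice, so no test of counts was run. Correlations used 100000 permutations within groups, and the Krt8 to Krt18 balance an exact permutation test (scipy 1.17.1). Nothing says that the mice came from separate cages or litters, so p-values measure the spread between these animals.

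The 8 genes and all other lists were chosen with earlier results of these data known. From each other list, the called genes with the lowest adjusted p were named, at most 4 per comparison, or, where none was called, the 2 with the largest change; not all of them were named. Alternatives were median-of-ratios scaling, a mean of at least 50, pseudocounts of 0.1 and 10, sample quality weights, a fit over all 4 groups, voom weights on estimated reads, a replicate block, the call by unadjusted p and a log2 fold change beyond 1, and leaving out each mouse in turn. The counts for the other lists and the correlations without EtOH-fed Apoe KO mouse 1 were chosen after seeing the data.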

Additional observations from a re-analysis of the deposited data

Results flagged for a closer look

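The difference between the diet effects of the 2 genotypes was singled out for Krt19, because the interaction itself passed the test. Krt19 was lower after EtOH in WT mice (log2 fold change -1.86) and higher after EtOH in Apoe KO mice (1.32), which gave an interaction of 3.18 (SE 0.69, limma adjusted p = 0.0156). The library labelled EtOH-fed Apoe KO mouse 1, whose Xist and Ddx3y values went against its labelled sex, was the lowest of its group at 299, and EtOH-fed Apoe KO mouse 4 the highest at 1273. A search for a single mouse far from the rest of its group, in 36 groups of values (8 genes and the Krt8 to Krt18 balance in 4 groups), found 0, where chance alone flags about 1 in 20 groups.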

How the results depend on the processing

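The 10 called values of the 8 genes kept their direction in all 178 alternatives. The number of genes called changed as follows. Between the EtOH-fed genotypes, 3 became 1 (Krt8) with median-of-ratios scaling, 2 with the call by unadjusted p and fold change (Krt18 lost), 2 with quality weights (Krt19 lost) and 4 with all 4 groups in the fit (Cd24a gained), and leaving out 1 mouse gave 1 to 3. On the control diet, 0 became 1 (Krt19) with voom weights, with the replicate block and with the call by unadjusted p and fold change, and leave-one-out gave 0 to 1. In WT mice, 3 became 1 (Krt19) with the call by unadjusted p and fold change, and leave-one-out gave 0 (without pair-fed WT mouse 1) to 5 (without EtOH-fed WT mouse 5), while with quality weights Krt8 replaced Krt18. In Apoe KO mice 3 became 2 with all 4 groups in the fit (Krt19 lost, adjusted p = 0.0526) and with the call by unadjusted p and fold change (Krt18 lost), and leave-one-out gave 2 to 5. For the interaction, 1 became 2 (Krt19 and Cd24a) with the call by unadjusted p and fold change, and leave-one-out gave 1 to 2. Reversals were confined to uncalled values of Krt7, Epcam, Sox9 and Spp1. With median-of-ratios scaling, Krt7 was -0.01 and Epcam -0.04 between EtOH-fed genotypes, and Spp1 was -0.07 for the diet in KO mice; with voom weights Krt7 was 0.04 between pair-fed genotypes; with quality weights Sox9 was -0.04 for the diet in WT and Spp1 -0.08 in KO mice. Leaving out 1 mouse, Krt7 ranged from -0.11 to 0.41 and Epcam from -0.02 to 0.32 between EtOH-fed genotypes, Epcam from -0.03 to 0.32 and Sox9 from -0.35 to 0.02 between pair-fed genotypes, Krt7 from -0.5 to 0.02 and Sox9 from -0.19 to 0.18 for the diet in WT mice, Krt7 from -0.07 to 0.43 and Spp1 from -0.28 to 0.29 for the diet in KO mice, and Epcam from -0.23 to 0.2 for the interaction. The causes were not tested.

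The labels give no meaning to a shared mouse number, and same-numbered mice did not deviate together in every pair. The block was therefore not used for the main values. A fit with the block kept only mice whose number occurred in every group compared, so it also left mice out. Between the EtOH-fed groups 3 of 4 pairs had a correlation over 0.1 (-0.0449 to 0.313, mean 0.171, beside -0.0424 for other pairs), and 2 of 4 mice were closest to their own number. With the replicate block, Cd24a was also called between the EtOH-fed genotypes (1.04, limma adjusted p = 0.0148), Krt8 (0.45) replaced Krt18 (0.48) in WT mice, Sox9 was -0.01 there and Epcam 0.2 for the interaction. Over all genes the fit with the block gave 1083 calls between the EtOH-fed genotypes, beside 706 in the main fit. On the control diet it gave 392 beside 261. For the diet it gave 1355 beside 1912 in WT and 2772 beside 3488 in KO mice, and for the interaction 599 beside 428. Leaving out only pair-fed Apoe KO mouse 3, which the block also dropped, gave 2637 for the diet in KO mice. The part of the block and that of the dropped mice were not separated. Leaving out 1 mouse gave 327 to 620 calls between the EtOH-fed genotypes and 73 to 670 on the control diet. For the diet in WT mice it gave 1186 to 1904 beside 1912, and for the interaction 167 to 561 beside 428. The balance of Krt8 to Krt18 did not pass adjustment in any alternative, but 1 comparison alone could not have passed. With 4 and 5 mice the smallest p of the exact permutation test is 0.0159, which alone adjusts to 0.0635 over the 4 comparisons. With 1 mouse left out the smallest p is larger. Depth limits Krt7 most, at an estimated 8 to 42 reads.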
